A study of Homo sapiens with 2 samples.

Results

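The 10 genes described here encode the enzymes that make serine from a glycolytic intermediate and pass a carbon of it on through the folate cycle of the cytosol and the mitochondrion. They were taken by symbol from the array annotation: PHGDH, PSAT1 and PSPH for serine synthesis, SHMT1 and MTHFD1 for the cytosolic folate steps, and SHMT2, MTHFD2, MTHFD2L, MTHFD1L and ALDH1L2 for the mitochondrial ones. All 10 were measured, among 18417 genes that had a probe set of their own, and all 10 were above the floor of 6 on the log2 scale in both samples. They are set beside the 13471 genes that reached 6 in at least 1 sample. They were chosen with their values in this comparison already known, so what follows describes them and tests nothing.

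Both groups were K562, a human chronic myeloid leukaemia line, carrying a hairpin RNA against BMI1 that doxycycline switches on. One group was incubated with doxycycline for 96 h and the other without it, and each held 1 sample on 1 array. The promoter that drives the hairpin, and whether the cells were 1 clone, are not given in the labels. No sample received doxycycline in cells that lack the hairpin, so the hairpin and the drug cannot be told apart, and neither can any other difference between the cultures. Values are log2 signals after the authors' RMA normalization, and every difference is doxycycline minus no doxycycline.

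Serine is built in sequence from phosphoglycerate, which PHGDH oxidises, PSAT1 aminates with glutamate as donor and PSPH dephosphorylates. SHMT1 in the cytosol and SHMT2 in the mitochondrion then split serine into glycine and a one-carbon unit held on tetrahydrofolate, which is carried as formate between the compartments and is needed for purines, thymidylate and methionine. The serine synthesis genes and several mitochondrial folate genes are known targets of the transcription factor ATF4, which cells use when amino acids run short or mitochondria are disturbed.

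The targeted gene was lower in the doxycycline sample. Its probe set, which the read-through COMMD3-BMI1 shares, had a log2 value of 10.00 in the doxycycline sample, against 10.84 in the sample without it. Of 11 erythroid markers chosen for K562, 9 were measured and past the floor, among them GATA1 at 10.16 with doxycycline, against 10.34 in the control, and HBE1 at 13.03, against 13.34. All 9 were lower with doxycycline (48.8% of all genes compared were lower), 4 of them by at least 1.2-fold (4.05% of all genes), with a median difference of -0.25, and their summed linear signal was 17415 with doxycycline and 20795 without. Other cell types were checked by lists of their markers, of which CD3E, MS4A1, MPO and DCN were under the floor in both samples while CD7, LYZ, EPCAM and KRT18 were well above it. Of 8 T and NK cell markers 3 passed the floor, with a median of 0.07 and summed signals over all 8 of 931 with doxycycline and 916 without. Of 5 B cell markers 3 passed, with a median of -0.17 and sums of 328 with doxycycline and 358 without. Of 7 myeloid markers 5 passed, with a median of 0.01 and sums of 1060 with doxycycline and 1020 without. Within that list LYZ differed by 0.28 and ELANE by -0.33, both past 1.2-fold. Of 8 fibroblast and epithelial markers 5 passed, with a median of -0.03 and sums of 4031 with doxycycline and 4270 without. The part of the erythroid shift in the results below was not tested, and in a bulk sample fewer cells of a kind and less RNA per cell cannot be told apart.

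All 3 serine synthesis genes were higher in the doxycycline sample (50.3% of all genes were higher), in the order of the pathway. PHGDH, which catalyses the committed first step, had a log2 value of 10.48 with doxycycline, against 9.28 in the control, a difference of 1.196 or 2.29-fold. Of the 13471 genes, 1 had a larger difference, and none did among the 500 genes nearest to PHGDH in mean level (0 of 500), whose differences had a robust SD of 0.12. PSAT1, the transaminase, had 9.77 with doxycycline, against 9.12 in the control, which is 0.65 or 1.57-fold. There were 32 genes with a larger difference, 1 of them among the 500 of similar level. PSPH, the phosphatase that releases serine, had 8.91 with doxycycline, against 8.57 in the control, a difference of 0.34 or 1.27-fold, and 392 genes exceeded it.

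The difference of PHGDH thus exceeded that of PSAT1 by 0.55, and PSAT1 exceeded PSPH by 0.30. For scale, the differences of separate probe sets of a same gene had a pooled SD of 0.13 over 554 genes. It refers to single differences, and a gap between the differences of 2 genes spreads more widely. That figure covers the array's features and not cultures, for which there was no replicate. PSPH had another probe set, listed with the same accessions, at 8.57 with doxycycline, against 8.42 in the control, a difference of 0.15. The annotation does not say which of them reads the PSPH transcript itself and whether the other reads a related copy, so both values are uncertain. With the mean of the 2 probe sets PSPH differed by 0.25, below the 1.2-fold size (0.26 on the log2 scale).

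**Figure D1:**
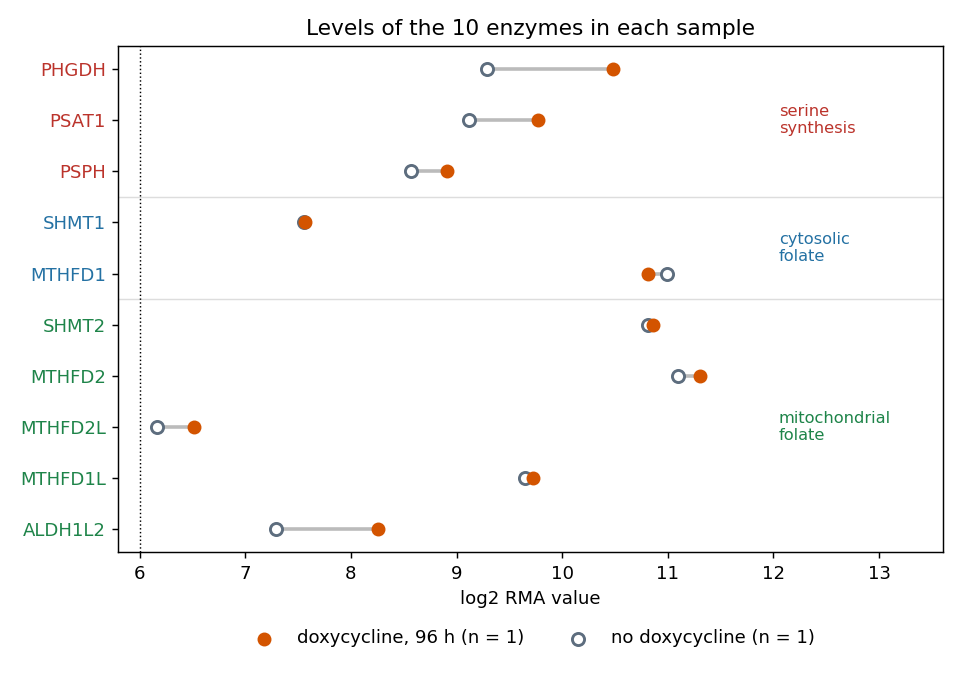
Log2 RMA value (horizontal axis) of each enzyme in the doxycycline sample (filled) and in the sample without doxycycline (open), 1 array each, grouped by step. The gap is widest for PHGDH (10.48 and 9.28), ALDH1L2 (8.26 and 7.30) and PSAT1 (9.77 and 9.12). MTHFD1 alone has its filled point on the left by more than the width of a symbol. Levels of different genes are not comparable on this axis, and the dotted line marks the floor of 6.

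The cytosolic folate genes did not share this direction. SHMT1, the cytosolic serine hydroxymethyltransferase, had 7.56 with doxycycline, against 7.56 in the control, a difference of 0.01 that became -0.01 when samples were centred on their medians. MTHFD1, which carries the cytosolic dehydrogenase, cyclohydrolase and formyl-tetrahydrofolate synthetase activities on 1 protein, had 10.81 with doxycycline, against 10.99 in the control. It was 1.13-fold lower (-0.18), and was the only one of the 10 genes that was lower under each scaling tried. Among the 500 genes nearest to it in level, 30 had a difference as low.

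All 5 mitochondrial folate genes listed were higher with doxycycline (50.3% of all genes were higher), but by very different amounts. ALDH1L2, which oxidises formyl-tetrahydrofolate to carbon dioxide and makes NADPH, had 8.26 with doxycycline, against 7.30 in the control, a difference of 0.96 or 1.95-fold. It ranked after 7 of the 13471 genes, and no gene of similar level had as large a difference (0 of 500). MTHFD2L, a dehydrogenase and cyclohydrolase, had 6.52 with doxycycline, against 6.16 in the control, which is 0.35 or 1.28-fold. Both of its values lay close to the floor, where genes of similar level had a wider spread (robust SD 0.19), and 30 of those 500 had a difference as high. MTHFD2, its better known paralogue with the same activities, had 11.30 with doxycycline, against 11.10 in the control, a difference of 0.20 or 1.15-fold, and 27 of 500 genes of similar level reached it.

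A further probe set of MTHFD2, listed with the same accessions, gave a similar difference of 0.17 (10.84 with doxycycline, 10.67 without), with the same uncertainty as to a related copy. The serine hydroxymethyltransferase of the mitochondrion, SHMT2, had 10.86 in the doxycycline sample, against 10.81 in the control, a difference of 0.05. MTHFD1L, the synthetase that releases formate for export, had 9.73 with doxycycline, against 9.65 in the control, a difference of 0.08. Of the 500 genes nearest in level, 167 were as high as SHMT2 and 139 as high as MTHFD1L, so both stood inside the bulk of their neighbours.

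**Figure D2:**
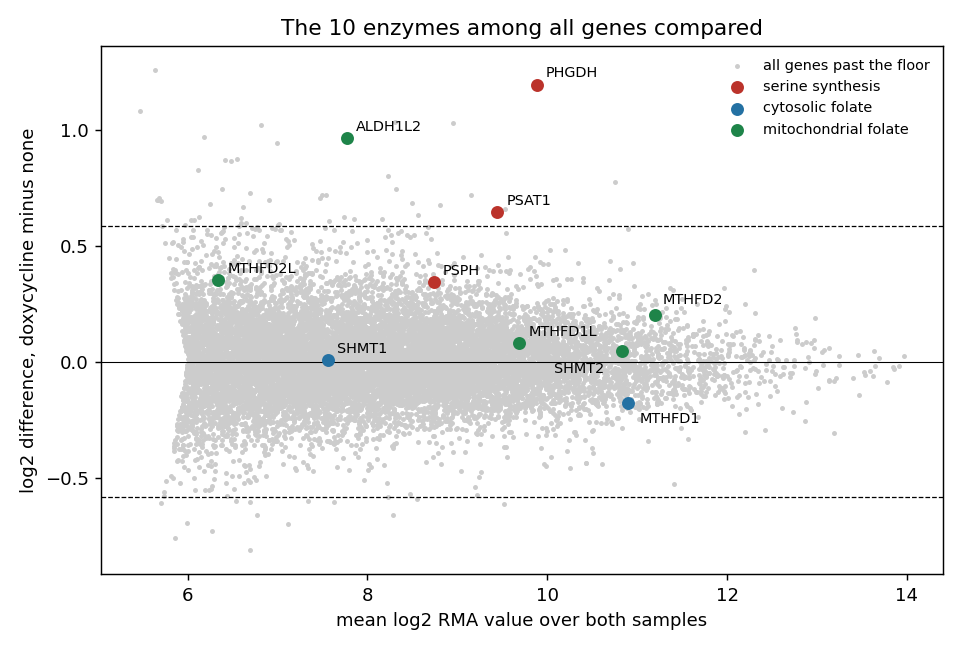
Log2 difference, doxycycline minus none (vertical axis), against mean log2 value over both samples (horizontal axis) for the 13471 genes past the floor (grey) and the 10 enzymes (coloured by group). Dashed lines mark 1.5-fold. PHGDH at 1.196, ALDH1L2 at 0.96 and PSAT1 at 0.65 lie above the upper line, and SHMT1, SHMT2 and MTHFD1L lie within the grey band near 0.

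Counted together, 9 of the 10 enzymes were higher and 1 lower, where 50.3% of all genes were higher and 48.8% lower. At least 1.2-fold higher were 5 of the 10 (6.04% of all genes), and at least 1.5-fold higher were 3 of the 10 (0.364% of all genes). Of those 5, PSPH fell under 1.2-fold with its probe sets averaged (0.25), and MTHFD2L lay close to the floor. None was lower by 1.2-fold (0 of 10, against 4.05% of all genes) or by 1.5-fold (0 of 10, against 0.111%). Because the genes were chosen from this contrast, nothing is read from these shares. The median difference was 0.65 for serine synthesis (3 genes), 0.20 for mitochondrial folate (5 genes) and -0.09 for cytosolic folate (2 genes), beside 0.27 for all 10 enzymes and 0.0018 for all genes. Without PHGDH the serine synthesis median was 0.49, and without ALDH1L2 that of mitochondrial folate was 0.14.

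Enzymes of the same reaction were set against each other across the membrane. For the hydroxymethyltransferases the gap was small, with the difference of SHMT2 exceeding that of SHMT1 by 0.04. For the dehydrogenase and cyclohydrolase steps the mitochondrial gene exceeded MTHFD1 by 0.38 with MTHFD2 and by 0.53 with MTHFD2L. For the synthetase step MTHFD1L exceeded MTHFD1 by 0.26. These 3 gaps share the value of MTHFD1, whose own difference of -0.18 enters each of them. For formyl-tetrahydrofolate dehydrogenase, a pair added after the values were seen, ALDH1L2 differed by 0.96 and its cytosolic counterpart ALDH1L1 by 0.07 (6.48 with doxycycline, 6.41 without). Both ALDH1L1 values lay close to the floor of 6, which limits what its small difference shows.

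Probe sets that several genes share were read separately. The one annotated to both MZT2B and PHGDH had 10.43 with doxycycline, against 10.40 in the control, a difference of 0.03, unlike the 1.196 of the probe set that PHGDH has to itself. Which transcript gives its signal is not stated in the annotation. MTHFD1L shares 4 probe sets with uncharacterised loci. These hold 2 distinct pairs of values, namely 7.62 with doxycycline against 7.62 in the control, and 7.51 with doxycycline against 7.59 in the control. None of these 5 shared probe sets entered the gene values.

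**Figure D3:**
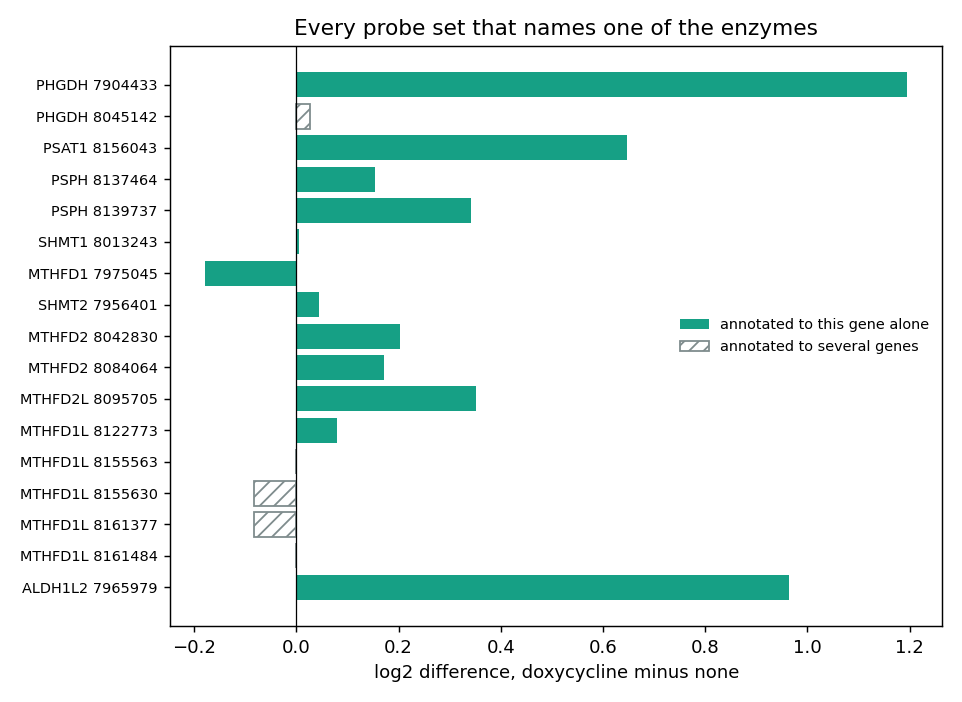
Log2 difference, doxycycline minus none (bars from 0), for each probe set that names one of the enzymes, with the gene and the probe set number. Filled bars are annotated to that gene alone and hatched bars to several genes. The 2 filled bars of MTHFD2 are near each other (0.20 and 0.17), those of PSPH less so (0.34 and 0.15), and the shared PHGDH bar (0.03) is far from the filled one (1.196). The pair of shared MTHFD1L probe sets with a difference of 0 shows no bar.

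Promoter windows, 250 bases before and 50 after a transcription start in RefSeq on GRCh38.p14, were found for 7 of the 10 genes, in 11 windows. PSPH, SHMT2 and ALDH1L2 had none here. Each was searched on both strands for TGATGNAA, the core of the amino acid response element that ATF4 and C/EBP proteins bind, for CACGTG, the E-box bound by MYC and others, for CCAAT, the box bound by NF-Y, and for TGACNNNGC, the core of the antioxidant response element. The 250 bases upstream of the start are shown, on the plus strand, for the serine synthesis genes that were higher together (PHGDH, chr1:119711684-119711933, and PSAT1, chr9:78296875-78297124), and for the folate genes whose differences were 0.08 (MTHFD1L, chr6:150866236-150866485) and -0.18 (MTHFD1, chr14:64388103-64388352). MTHFD1L has 4 windows, and the one shown was taken from those whose upstream bases hold the amino acid response element core. Capitals mark matches to the amino acid response element core, the E-box and the CCAAT box, which do not overlap each other there.
PHGDH: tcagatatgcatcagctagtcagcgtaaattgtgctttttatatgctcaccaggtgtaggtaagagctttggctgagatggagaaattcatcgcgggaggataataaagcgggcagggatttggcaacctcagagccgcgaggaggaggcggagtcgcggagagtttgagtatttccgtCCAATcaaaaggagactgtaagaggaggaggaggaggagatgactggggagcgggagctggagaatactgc
PSAT1: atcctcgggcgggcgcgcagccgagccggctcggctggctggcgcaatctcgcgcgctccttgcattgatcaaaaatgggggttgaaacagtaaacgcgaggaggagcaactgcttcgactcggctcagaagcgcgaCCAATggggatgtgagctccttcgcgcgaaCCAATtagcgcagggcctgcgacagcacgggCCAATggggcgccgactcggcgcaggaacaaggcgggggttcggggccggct
MTHFD1L: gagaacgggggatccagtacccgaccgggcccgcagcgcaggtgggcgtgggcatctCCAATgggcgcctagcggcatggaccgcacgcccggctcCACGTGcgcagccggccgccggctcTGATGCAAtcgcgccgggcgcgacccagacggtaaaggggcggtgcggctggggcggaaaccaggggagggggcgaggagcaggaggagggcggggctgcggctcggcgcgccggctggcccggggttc
MTHFD1: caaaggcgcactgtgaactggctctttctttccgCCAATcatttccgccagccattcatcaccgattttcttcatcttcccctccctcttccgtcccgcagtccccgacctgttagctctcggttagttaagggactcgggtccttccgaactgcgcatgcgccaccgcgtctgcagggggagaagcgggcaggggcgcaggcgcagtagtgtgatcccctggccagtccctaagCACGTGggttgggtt

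The PSAT1 window held CCAAT 3 times, with first bases at -113, -83 and -52 (the base before the start being -1 and the first transcribed base 1), and the PHGDH window once, at -71. The box was also present in other members, those lower or close to 0 included. There were 2 matches each in the windows of MTHFD1, SHMT1 and MTHFD2, 1 in each of 3 MTHFD1L windows and none for MTHFD2L. Those 3 MTHFD1L windows overlap, and their match is the same box. Of 35116 windows of this length, 34.6% held CCAAT at least once and 3.26% at least 3 times. TGATGNAA occurred in neither of these, and was found only for MTHFD1L among the 7 genes, as TGATGCAA at -129 in the window shown. It is present in 3.62% of all windows. CACGTG lay at -154 in that window and at -15 in that of MTHFD1, and in 7.26% of all windows. TGACNNNGC was found downstream of the start in MTHFD2 (at 7) and in 1 of 2 MTHFD2L windows (at 23), and in 13.3% of all windows. MTHFD1L has 4 annotated starts, so its positions depend on the start taken. In its other windows the same TGATGCAA lay at -90, lay downstream of the start at 25, or was absent. A match describes the letters only, and none of these windows says whether a factor was bound. Nor does a missing match show that a gene lacks the element, since only these patterns within 300 bases were searched.

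The genes around these enzymes were described through 11 further lists holding 96 genes, of which 83 were measured and 79 passed the floor. Of the 79, 40 were higher and 37 lower with doxycycline (50.3% and 48.8% of all genes). At least 1.2-fold higher were 5 of them (6.33%), a share close to the 6.04% of all genes, and 1 was at least 1.2-fold lower (1.27%, against 4.05% of all genes). None reached 1.5-fold (0 of 79), where 0.364% of all genes were that much higher and 0.111% lower. With shares so small, 0 of 79 is close to that of all genes. The 5 higher genes were DDIT3, SLC1A4, CTH, ASNS and SPTLC2, and the lower one was PTDSS2.

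Transport of serine and glycine was the list with the highest median, 0.13, with 6 of 7 genes higher (50.3% of all genes). SLC1A4, a neutral amino acid exchanger that carries serine, had 8.54 with doxycycline, against 7.99 in the control (0.55). Upstream, the glycolytic genes as far as phosphoglycerate were lower in 9 of 11 cases (48.8% of all genes), with a median of -0.08. GPI, phosphoglucose isomerase, differed by -0.20 and ALDOA, an aldolase, by -0.17. Below the branch point 2 of 5 genes were higher (50.3% of all genes), with a median of -0.02. Both lactate dehydrogenase genes, LDHA and LDHB, were at -0.11. Neither list held a gene that was 1.2-fold higher (6.04% of all genes) or 1.2-fold lower (4.05%). Lists this short cannot tell 0 from such shares.

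Among consumers of one-carbon units, the purine synthesis genes were lower in 7 of 8 cases (48.8% of all genes), with a median of -0.10. None of the 8 differed by 1.2-fold, where 6.04% of all genes were that much higher and 4.05% lower. A list this short cannot tell 0 from such shares. PAICS had 11.48 with doxycycline, against 11.68 in the control, and ADSL had 9.59, against 9.79, so both differed by -0.20. Other folate enzymes had a median of -0.04 (2 of 6 higher, against 50.3% of all genes). TYMS, thymidylate synthase, was at -0.09 and FTCD at -0.16. Folate uptake and activation had a median of 0.02 (4 of 7 higher, against the same 50.3%). Its furthest members were SLC19A1, the reduced folate carrier, at -0.24 (8.45 with doxycycline, 8.69 without) and the folate receptor gene FOLR1 at 0.12. In glycine cleavage, 3 genes had a median of 0.0034, with DLD at 0.11 and GLDC at 0.0034 near the floor.

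Of the users of serine 3 of 7 were higher, close to the 50.3% of all genes, with a median of -0.01. SPTLC2, a subunit of serine palmitoyltransferase, had 9.06 with doxycycline, against 8.75 in the control (0.31). PTDSS2, which places serine into phosphatidylserine, had 8.59, against 8.98 (-0.39). In the methionine cycle and transsulfuration list, CTH, which makes cysteine from cystathionine, stood apart from the rest at 0.55 (8.72 with doxycycline, 8.17 without). Of its 4 genes past the floor 2 were higher (50.3% of all genes), and the median was 0.03, or -0.11 without CTH.

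Synthesis of other non-essential amino acids had a median of 0.05 (6 of 9 higher, against 50.3% of all genes). Its furthest gene was ASNS, asparagine synthetase, at 0.48 (10.43 with doxycycline, 9.95 without). The proline synthesis genes PYCR1 and ALDH18A1, named after their values were seen, were at 0.07 and 0.04. Regulators of these pathways were higher in 10 of 12 cases (50.3% of all genes), with a median of 0.11. DDIT3, a transcription factor gene downstream of ATF4, was at 0.57, while ATF4 and MYC, also named after their values were seen, were at 0.23 and -0.17.

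**Figure D4:**
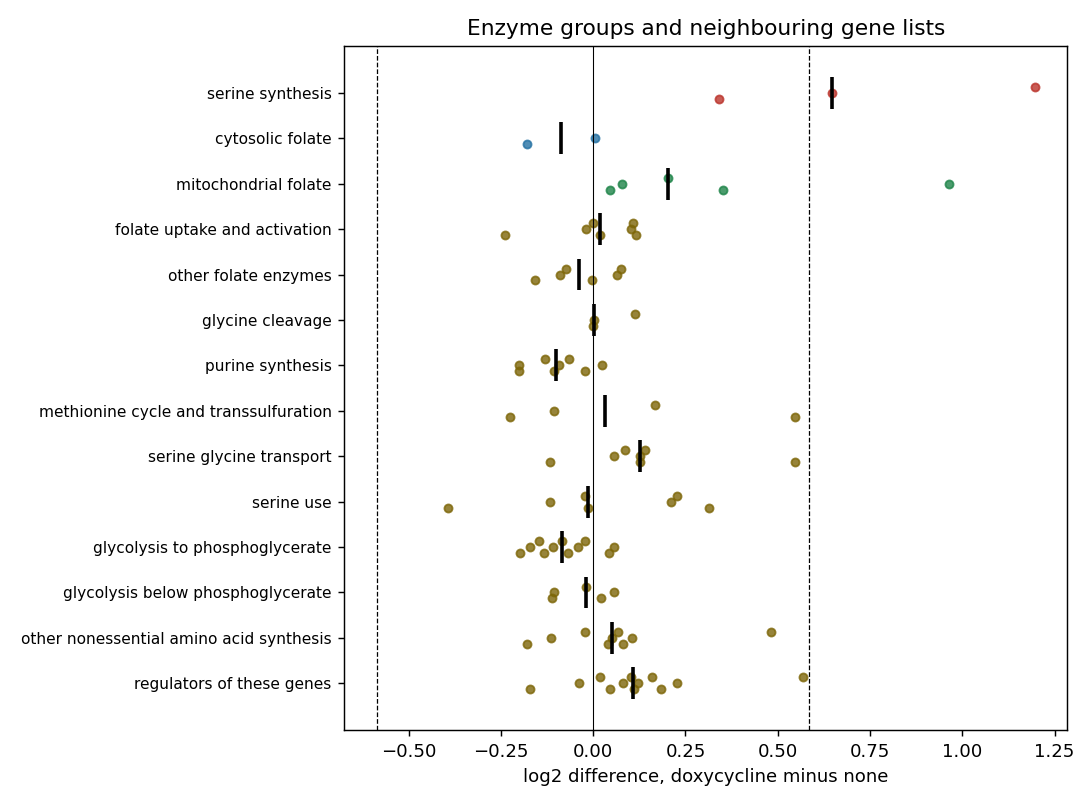
Log2 difference, doxycycline minus none (horizontal axis), of each gene past the floor in the 3 enzyme groups (top rows) and 11 neighbouring lists, with the median of each as a black bar. Dashed lines mark 1.5-fold. The serine synthesis median (0.65) lies beyond the upper line and that of mitochondrial folate at 0.20, while the 11 other medians lie between -0.10 and 0.13.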

How the data were processed

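Total RNA of the 2 K562 cultures (0.3 µg each, integrity number 10) was biotin-labelled, per the labels, and each culture was read on 1 Affymetrix array. The series' text and the platform annotation name different array models, and the annotation, whose probe set numbers match the table, was used. The authors deposited log2 values from RMA, and the submitters' processing notes name Affymetrix Expression Console 1.1.1. RMA equalises the arrays' distributions and would remove a shift common to all genes. No label states the log base, which was inferred from RMA's usual output and a range of 1.61 to 14.6. No source used here gives the array's genome build. Array number limits precision, and with 1 sample per group no p-value was computed.

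Of 33297 probe sets, 19460 had 1 gene symbol, 1754 several and 12083 none here. Symbols were updated by Entrez ID to RefSeq on GRCh38.p14 (19429 of 19460 matched). A gene took its single-symbol probe set of highest mean, and genes whose higher value was under 6 were left out. The robust SD is 1.4826 times the median absolute deviation. The members and gene lists were chosen with earlier results of these data known. Named were the enzymes, BMI1 and list genes differing by at least 1.2-fold (in lists with none, the 2 furthest from 0). The rule also took the genes nearest to PHGDH in both values, which are not given because that distance compares levels of different probe sets. Marker genes are named as examples, and other names outside this rule are said to be chosen after their values were seen. Other settings tried were averaging probe sets by mean or median, centring, quantile normalization, a loess trend (span 0.3), other floors and lists without their furthest member. The choice of probe set per gene, the fold call and the loess step were tested on simulated data, and the other steps were not. Python 3.11.15, numpy 2.4.6, pandas 2.3.3 and statsmodels 0.14.6 were used.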

Additional observations from a re-analysis of the deposited data

How the results depend on the processing

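Over 10 alternatives, 274 values were recomputed. A difference or median was taken as unmoved when it shifted by less than 0.13, the pooled SD between probe sets of a gene, and a count when it stayed within 1.5 times. By this measure 265 values were unmoved, 9 moved and 0 differences of at least 1.2-fold changed sign. Across probe set rules and scalings PHGDH was never under 1.18, and the range was 0.95 to 0.96 for ALDH1L2, 0.63 to 0.65 for PSAT1, 0.25 to 0.34 for PSPH and -0.19 to -0.16 for MTHFD1. Without its member furthest from 0, the median was 0.49 for serine synthesis and -0.11 for the methionine cycle and transsulfuration list. The number of genes at least 1.5-fold higher was 77 with no floor, 26 with a floor of 7 and 16 with a floor of 8, against 49. The number at least 1.5-fold lower was 66, 9 and 4 at these floors and 32 at a floor of 5, against 15. Fewer or more dim genes enter by construction. The 3 enzymes past 1.5-fold were 3 under each floor and scaling. Signs near 0 changed 9 times, in SHMT1 and in the medians of small lists and of cytosolic folate. No paired analysis was possible because each group held 1 sample. Dim signals such as MTHFD2L limit what a difference shows.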

Other observations

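The glycine cleavage gene GCSH, which had no probe set of its own, is named with related loci by 3 shared probe sets, an observation made after the values were seen. The loci these probe sets name overlap, so they are not independent readings. All 3 were lower in the doxycycline sample (48.8% of all genes were lower), with differences of -0.26, -0.29 and -0.32. At the first, the log2 value was 9.69 with doxycycline, against 9.95 in the control. GCSH carries the lipoyl group of the glycine cleavage system and hands lipoate to other mitochondrial enzymes. Which of the named loci gives the signal is not stated in the annotation. The genes PGAM1 and PGAM4, for phosphoglycerate mutase directly below the serine branch, share 5 probe sets, a pair of them with identical values. These probe sets differed by -0.16 to -0.18.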
